A study of Mus musculus with 18 samples.

Results

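Interferon-induced genes are switched on when secreted interferons bind their receptors and the JAK kinases below them activate STAT transcription factors. Their products sense viral RNA, degrade it or block its translation, attack intracellular parasites, load peptides for immune recognition and call in lymphocytes. The 37 genes described here were listed by name, and each was read on the probe set of the array that carries that 1 gene symbol, by highest mean where a gene had several. 35 of the 37 had such a probe set, and 34 lay above the filter on low values and were tested, among 12880 genes tested of 18193 genes with a single-symbol probe set. The 3 that were not tested were Oas3, Isg15 and Ifi44. The mean of Oas3, 4.68 on the log2 scale, fell just under the filter value of 4.69. Isg15 was read only on a probe set annotated to both Isg15 and Gm9706, and Ifi44 had no probe set in the annotation used.

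The livers came from male C57BL/6J mice (the strain is spelled C56BL/6J in the sample labels) that ate 1 of 3 diets for 20 weeks from the age of 5 weeks. The diets were AIN93G, a purified rodent diet, without quercetin (control), AIN93G with 0.05% quercetin and AIN93G with 1% quercetin. Quercetin is a flavonol found in many food plants. Each diet was given to 12 mice housed 3 to a cage, and 6 livers per diet were measured on 1 array each, 18 arrays in all. The labels name no infection and no interferon treatment. They do not say which mice shared a cage, and each mouse was treated as independent. The question was whether either dose changed these genes in the liver and how far they varied between mice that ate the same food.

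Type I interferons (the alpha and beta families) act on nearly every cell and drive a complex with STAT2 and IRF9 that binds a DNA element called the ISRE. Interferon-gamma, made mainly by T and NK cells, acts through a different element, the GAS, and raises IRF1, which in turn binds ISRE-like sites. In the liver both hepatocytes and Kupffer cells, the resident macrophages, respond to these signals. The genes were therefore kept in groups: 28 type I genes (25 tested), 7 interferon-gamma-type genes (Gbp2, Gbp3, Igtp, Irgm1, Irf1, Irf8 and Cxcl9, all tested) and 2 genes induced by both (Cxcl10 and Tap1).

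The 120 bases before the annotated start are printed for Ifit1, a standard type I target, and for Cxcl9 and 4 interferon-gamma-type GTPases whose levels are set beside it further on. The sequences are RefSeq's, from build GRCm38.p6, written 5′ to 3′ on the gene's own strand. Capitals mark matches to GAAANNGAAA on either strand (TTTCNNTTTC on the opposite one), the core letters of an ISRE, or to TTCNNNGAA, the palindrome of a GAS, and overlapping matches run together. The stretches are chr19:34640769-34640888 on the plus strand for Ifit1, chr3:142620543-142620662 (plus) for Gbp2, chr3:142559924-142560043 (plus) for Gbp3, chr11:58199436-58199555 (plus) for Igtp, chr11:48871421-48871540 (minus) for Irgm1 and chr5:92328080-92328199 (minus) for Cxcl9.
Ifit1: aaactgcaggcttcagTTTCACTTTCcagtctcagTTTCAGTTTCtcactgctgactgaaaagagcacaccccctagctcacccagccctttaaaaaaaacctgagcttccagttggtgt
Gbp2: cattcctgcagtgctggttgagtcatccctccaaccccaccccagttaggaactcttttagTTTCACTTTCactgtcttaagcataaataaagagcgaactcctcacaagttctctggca
Gbp3: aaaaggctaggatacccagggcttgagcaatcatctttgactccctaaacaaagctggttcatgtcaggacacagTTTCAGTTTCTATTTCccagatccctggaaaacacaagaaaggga
Igtp: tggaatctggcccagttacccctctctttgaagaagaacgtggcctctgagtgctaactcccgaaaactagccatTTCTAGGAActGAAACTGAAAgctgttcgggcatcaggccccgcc
Irgm1: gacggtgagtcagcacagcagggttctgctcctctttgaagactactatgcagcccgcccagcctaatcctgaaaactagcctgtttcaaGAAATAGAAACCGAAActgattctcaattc
Cxcl9: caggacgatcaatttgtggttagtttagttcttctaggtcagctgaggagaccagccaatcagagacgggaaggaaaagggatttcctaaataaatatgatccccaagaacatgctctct

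Ifit1 held 2 ISRE matches in this stretch, Gbp2 1, Gbp3 2 that overlap, Igtp 1 beside 1 GAS match, and Irgm1 2 that overlap. Cxcl9 held neither set of letters in these 120 bases. Over the full windows of 300 bases, from 250 before to 50 after the start, 29 of the 37 genes had a window, and some had several, 34 in all. Of these windows, 16 (47.1%) held GAAANNGAAA, against 3.44% of the 32851 windows of all genes, and 8 (23.5%) held TTCNNNGAA, against 8.3% of all windows. By group, GAAANNGAAA was found in 11 of 22 type I windows, 4 of 10 interferon-gamma-type windows and 1 of the 2 windows of genes induced by both. In the same order, TTCNNNGAA was found in 5 of 22, 3 of 10 and 0 of 2 windows. Gbp3 had 2 windows with different annotated starts: the printed bases are from 1 of them, and the other held neither set of letters. A match describes letters and is not a measured site.

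Signals are given as log2 of the deposited intensity after the 18 arrays were brought to 1 distribution and 16 was added, so a difference of 1 is a doubling for genes well above that floor and understates the change of dim genes. Bst2, which codes for tetherin, an antiviral membrane protein, had the highest mean of the 34 tested genes (10.84), followed by Trim25 (9.96), a ubiquitin ligase of the RNA-sensing route, and Ifi35 (9.84). Mx2 (4.75), Mx1 (4.84) and Oas2 (5.28) were the lowest, close to the filter, and C57BL/6 mice are known to carry a defective Mx1 allele. Levels of different probe sets cannot be ranked as amounts of RNA, because probes bind with different strength. The tissue label matched its markers: the 5 measured hepatocyte markers, albumin among them, had means of 13.0 or more in each diet. In whole liver, fewer cells of a type and less RNA per cell cannot be told apart.

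No gene of the 34 passed a test of difference between diets, whether type I or interferon-gamma-type. At 1% quercetin against control, 0 of 34 passed an adjusted p of 0.05 (limma with Benjamini-Hochberg adjustment over all 12880 genes), against 0.00776% of all tested genes. Without adjustment, 0 of 34 had a p under 0.05, against 8.8% of all genes, and 0 of 34 had groups that did not overlap, against 0.598%. At 0.05% quercetin against control the counts were likewise 0 of 34 by each rule, against 0%, 5.43% and 0.326% of all genes. Between 1% and 0.05% quercetin they were 0 of 34 again, against 0%, 9.07% and 0.675%. The test for any difference among the 3 diets called 0 of 34, against 0.00776% of all genes with adjustment and 8.56% without.

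**Figure D1:**
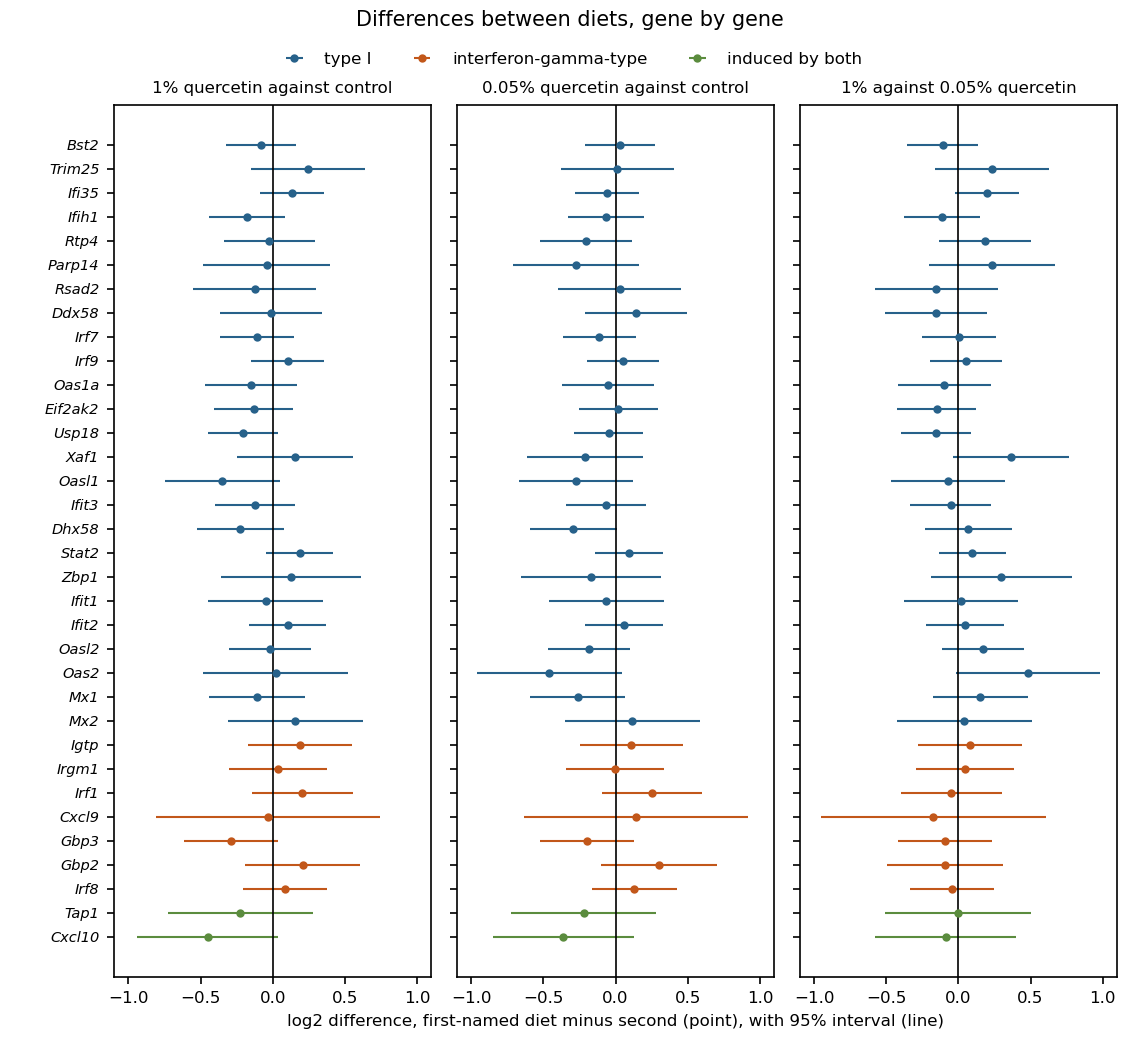
Differences between diets for the 34 tested genes on the log2 scale (x axis), with the fitted difference as a point and its 95% interval as a line, type I genes in blue, interferon-gamma-type genes in orange and genes induced by both in green. Every interval includes 0 and lies between -1 and 1, and the interval of Cxcl9 is the widest in each of the 3 panels.

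The size that the data leave room for was limited. In each of the 3 comparisons all 34 intervals (95%, from the fit) lay within 1 log2 unit of 0, and the median reach of an interval to either side was 0.34. Within 0.5 log2 units lay 19 of 34 intervals at 1% quercetin against control, 19 at 0.05% quercetin against control and 23 between the doses. The other intervals reached further, so larger differences remained possible for those genes.

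Directions were mixed. At 1% quercetin against control, 14 genes were higher and 20 lower, with a median difference of -0.03, where 49.4% of all tested genes were higher with a median of -0.0023. The 25 type I genes split 9 higher and 16 lower (median -0.04), and the 7 interferon-gamma-type genes 5 higher and 2 lower (median 0.09). At 0.05% quercetin against control the split was again 9 and 16 for type I (median -0.06) and 5 and 2 for interferon-gamma-type genes (median 0.13), where 46.9% of all genes were higher. These comparisons share the 6 control livers. Between 1% and 0.05% quercetin, 16 type I genes were higher and 9 lower (median 0.04), and 2 interferon-gamma-type genes were higher and 5 lower (median -0.05).

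Among the sensors, Dhx58, which codes for LGP2, a helicase that tunes RNA sensing, had the smallest p of the 34 genes at 0.05% quercetin. Its level was 5.72 to 6.38 (median 6.17) at 0.05% quercetin and 6.01 to 6.63 (median 6.47) in controls. The groups overlapped, although 6 of 6 livers at 0.05% quercetin lay below the control mean. The difference was -0.29 ± 0.14 (SE, n = 6 per diet, limma adjusted p = 0.92), and at 1% quercetin against control it was -0.23 ± 0.14 (limma adjusted p = 0.673). Ifih1 and Ddx58, the helicases MDA5 and RIG-I that detect viral RNA, were measured at means of 8.57 and 7.65 over the 18 livers. Ifih1 differed by -0.18 at 1% and -0.07 at 0.05% quercetin against control, and Ddx58 by -0.01 and 0.14. On a dimmer Ddx58 probe set above the filter (r = 0.40 with the one used) the differences were -0.22 and -0.13. Zbp1, a sensor of Z-form nucleic acid that can start cell death, was 5.50 to 6.90 in controls, 5.46 to 6.74 at 0.05% quercetin and 6.07 to 6.68 at 1% quercetin. The 1% livers lay inside the range of the others.

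Stat2 and Irf9, which code for members of the type I complex, and Irf7, which amplifies the type I response, stayed within narrow ranges. Stat2 was 5.95 to 6.45 (median 6.31) at 1% quercetin and 5.99 to 6.24 (median 6.07) in controls, a difference of 0.19 ± 0.11 (SE, n = 6 per diet, limma adjusted p = 0.644). The 1% livers reached both below and above the control range. Irf7 was 7.38 to 7.90 (median 7.75) in controls, 7.21 to 7.84 (median 7.64) at 0.05% quercetin and 7.33 to 7.93 (median 7.50) at 1% quercetin. The Irf7 difference was -0.11 at either dose against control (95% interval -0.37 to 0.14). Irf9 was 0.10 higher at 1% quercetin than in controls (95% interval -0.15 to 0.35).

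The ubiquitin-like system centres on ISG15, a protein tag, and USP18, the protease that removes it and restrains the type I receptor. Usp18 was 6.53 to 7.16 (median 7.04) in controls, 6.76 to 7.15 (median 6.88) at 0.05% quercetin and 6.55 to 7.10 (median 6.76) at 1% quercetin. The lowest of all 18 livers was a control, so the groups overlapped fully, and the difference at 1% quercetin was -0.21 ± 0.11 (SE, n = 6 per diet, limma adjusted p = 0.622). The probe set shared by Isg15 and Gm9706 averaged 6.90 ± 0.19 in controls, 6.90 ± 0.31 at 0.05% quercetin and 6.84 ± 0.42 at 1% quercetin (SD, n = 6 each), a difference of -0.06 at 1% quercetin against control. Trim25 had the highest positive difference of any member at 1% quercetin against control, 0.25 (95% interval -0.15 to 0.64).

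The antiviral effectors include the IFIT proteins, which bind foreign RNA, the OAS enzymes, which make the second messenger that activates RNase L, viperin (Rsad2), PKR (Eif2ak2) and the MX GTPases. Of 12 tested, 3 were higher and 9 lower at 1% quercetin against control (median -0.10), 5 higher and 7 lower at 0.05% quercetin (median -0.06), and 6 higher and 6 lower between the doses. Ifit1 was 5.69 to 6.60 (median 6.17) in controls, 5.80 to 6.42 (median 6.15) at 0.05% quercetin and 5.50 to 6.74 (median 6.14) at 1% quercetin. The 3 medians were almost equal, while the 18 livers spanned 1.23. Oasl1, which restrains the translation of Irf7 in mice, was 5.86 to 7.08 (median 6.51) at 1% quercetin and 6.39 to 7.41 (median 6.75) in controls, a difference of -0.35 ± 0.19 (SE, n = 6 per diet, limma adjusted p = 0.609). Ifit3 and Oas1a have close copies in the mouse genome, and their probe sets may take up signal from them.

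Oas2 gave the largest difference between the doses. Its level was 4.81 to 6.05 (median 5.44) in controls, 4.25 to 5.51 (median 5.06) at 0.05% quercetin and 4.92 to 5.72 (median 5.60) at 1% quercetin. At 0.05% quercetin 3 livers lay between 4.25 and 4.75, below every liver of the other diets, and 3 lay between 5.37 and 5.51, inside the ranges of both. The difference was 0.48 ± 0.24 (SE, n = 6 per diet, limma adjusted p = 0.571) for 1% against 0.05% quercetin and -0.46 ± 0.24 (limma adjusted p = 0.921) for 0.05% quercetin against control. Mx1 was 4.03 to 5.17 at 0.05% quercetin and 4.64 to 5.20 in controls, and its lowest value sat at the floor that the added 16 sets. Mx2 was 4.27 to 5.28 in controls, 4.35 to 5.29 at 0.05% quercetin and 4.37 to 5.56 at 1% quercetin.

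Oas3 lay just below the filter. It was 4.57 to 5.33 (median 5.00) in controls, 4.20 to 5.33 (median 4.44) at 0.05% quercetin and 4.31 to 4.63 (median 4.48) at 1% quercetin. In a fit without the filter its difference was -0.49 ± 0.16 at 1% quercetin against control (SE, n = 6 per diet, limma adjusted p = 0.445, unadjusted p = 0.00761), where 7.92% of all 18193 genes had an unadjusted p under 0.05. At 0.05% quercetin against control it was -0.38 ± 0.16 (limma adjusted p = 0.907, unadjusted p = 0.0299). It was named after its values were seen, its 1% and control groups overlapped at 4.57 to 4.63, and its deposited intensities were low, at 3.09 to 25.6.

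Of the remaining type I genes, Xaf1, a pro-apoptotic partner of XIAP, and Ifi35, a binding partner of NMI, had small p values between the doses. Xaf1 was 6.36 to 7.61 (median 6.97) at 1% quercetin and 6.18 to 6.98 (median 6.59) at 0.05% quercetin, a difference of 0.37 ± 0.19 (SE, n = 6 per diet, limma adjusted p = 0.592). Ifi35 was 9.65 to 10.19 (median 9.97) at 1% quercetin and 9.56 to 10.06 (median 9.74) at 0.05% quercetin, a difference of 0.20 ± 0.11 (limma adjusted p = 0.598). Rtp4, a receptor transport protein, and Parp14, an ADP-ribosyltransferase, were 0.18 and 0.23 higher at 1% than at 0.05% quercetin, and the groups of each of these 4 genes overlapped.

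The interferon-inducible GTPases take part in the defence of cells against intracellular pathogens. Gbp2, a guanylate-binding protein, was 5.43 to 6.70 (median 6.03) in controls, 5.86 to 6.81 (median 6.43) at 0.05% quercetin and 5.74 to 6.53 (median 6.33) at 1% quercetin. Its difference was 0.21 ± 0.19 at 1% (limma adjusted p = 0.787) and 0.30 ± 0.19 at 0.05% quercetin against control (SE, n = 6 per diet, limma adjusted p = 0.937). Gbp3, of the same family, leaned the other way, at 6.36 to 7.20 (median 6.70) in controls, 6.14 to 6.91 (median 6.52) at 0.05% quercetin and 6.10 to 6.80 (median 6.43) at 1% quercetin. The Gbp3 difference was -0.29 ± 0.15 at 1% quercetin against control (SE, n = 6 per diet, limma adjusted p = 0.608). Igtp and Irgm1, members of the IRG family, differed by 0.19 and 0.04 at 1% quercetin and by 0.11 and -0.01 at 0.05% quercetin against control. None of these differences passed the test, and that of Gbp3 was about the size of its SD between livers (0.28).

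Irf1, the transcription factor raised by interferon-gamma, was 8.20 to 8.62 (median 8.33) in controls, 8.44 to 8.83 (median 8.62) at 0.05% quercetin and 8.11 to 9.36 (median 8.41) at 1% quercetin. At 0.05% quercetin 6 of 6 livers lay above the control mean, with a difference of 0.25 ± 0.17 (SE, n = 6 per diet, limma adjusted p = 0.947). The highest value, 9.36, came from replicate 1 of the 1% diet, and that diet also held the lowest. Irf8, needed for macrophage and dendritic cell development, differed by 0.09 at 1% and 0.13 at 0.05% quercetin against control.

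Cxcl9 and Cxcl10 are chemokines that draw T and NK cells through the receptor CXCR3. Cxcl9 was 6.92 to 8.64 (median 7.40) in controls, 6.71 to 8.67 (median 7.55) at 0.05% quercetin and 6.26 to 8.28 (median 7.70) at 1% quercetin. Its span of 2.40 over the 18 livers was the largest of the 34 genes, and its differences were -0.03 at 1% and 0.14 at 0.05% quercetin against control, both with an SE of 0.37. Cxcl10 was 5.61 to 7.36 (median 6.40) in controls, 5.64 to 6.34 (median 6.09) at 0.05% quercetin and 5.71 to 6.24 (median 5.93) at 1% quercetin. The 6 livers of each quercetin diet lay below the control mean, but the control livers spanned the ranges of both. The difference was -0.45 ± 0.23 at 1% (limma adjusted p = 0.594) and -0.36 ± 0.23 at 0.05% quercetin against control (SE, n = 6 per diet, limma adjusted p = 0.945). Without replicate 2 of the control diet, the highest of the 18 livers, the Cxcl10 differences were -0.26 and -0.17. Without replicate 6 of the control diet, the lowest of the 18 livers, they were -0.61 and -0.52. Tap1, a subunit of the transporter that feeds peptides to MHC class I, was 7.17 to 7.91 in controls, 6.75 to 7.96 at 0.05% quercetin and 6.57 to 8.02 at 1% quercetin, with a difference of -0.22 in both comparisons with control.

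**Figure D2:**
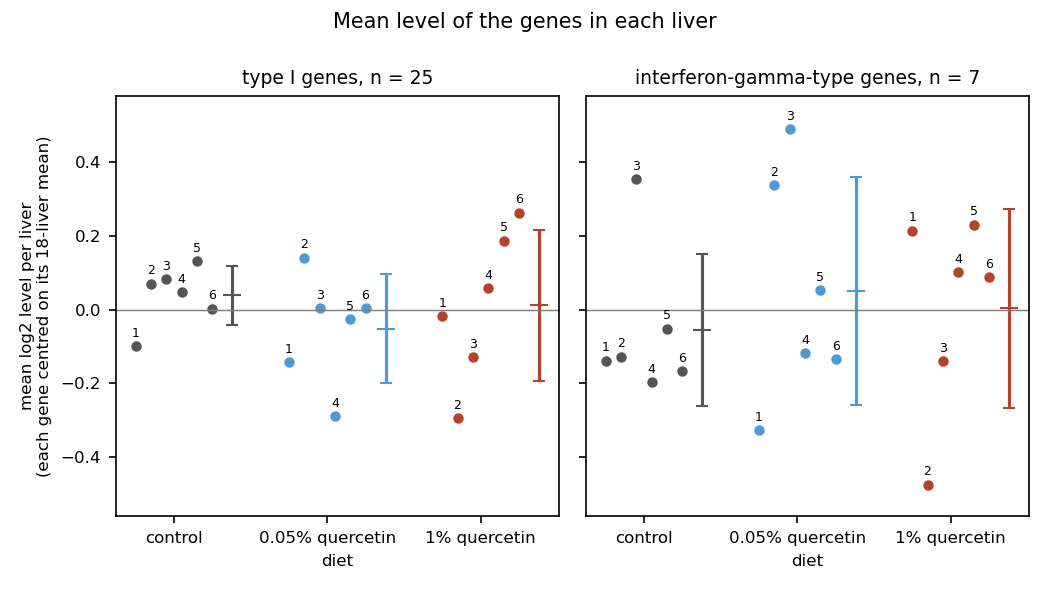
Mean level of the 25 type I genes (left) and the 7 interferon-gamma-type genes (right) in each liver, on the log2 scale after each gene was centred on its mean over 18 livers (y axis), by diet (x axis). Numbers are replicate numbers and bars are the mean ± SD of 6 livers, and the 3 diets overlap in both panels.

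Livers of the same diet differed widely. The mean type I level of a liver, each gene centred on its mean over the 18 livers, was -0.10 to 0.13 in controls, -0.29 to 0.14 at 0.05% quercetin and -0.29 to 0.26 at 1% quercetin. The interferon-gamma-type level was -0.20 to 0.36 in controls, -0.33 to 0.49 at 0.05% quercetin and -0.47 to 0.23 at 1% quercetin. Replicate 2 of the 1% diet was lowest in both, and it held the lowest value of the 18 livers for 11 of 34 genes and lay above the gene's mean for 2 of 34. In the same diet, replicates 5 and 6 lay above the mean for 31 and 27 of 34 genes. Without replicate 2, the median difference of the type I genes at 1% quercetin against control turned to 0.04 and that of the interferon-gamma-type genes was 0.22, and between the doses the interferon-gamma-type median turned to 0.04. Without replicate 5 of the 1% diet, the type I median between the doses was -0.03, and without replicate 3 of the 0.05% diet the interferon-gamma-type median at 0.05% quercetin against control was -0.02. At 0.05% quercetin, replicate 4 had the lowest type I level and replicate 3 the highest interferon-gamma-type level, and in controls replicate 3 stood out on the interferon-gamma-type genes at 0.36, against -0.20 to -0.05 in the other 5.

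**Figure D3:**
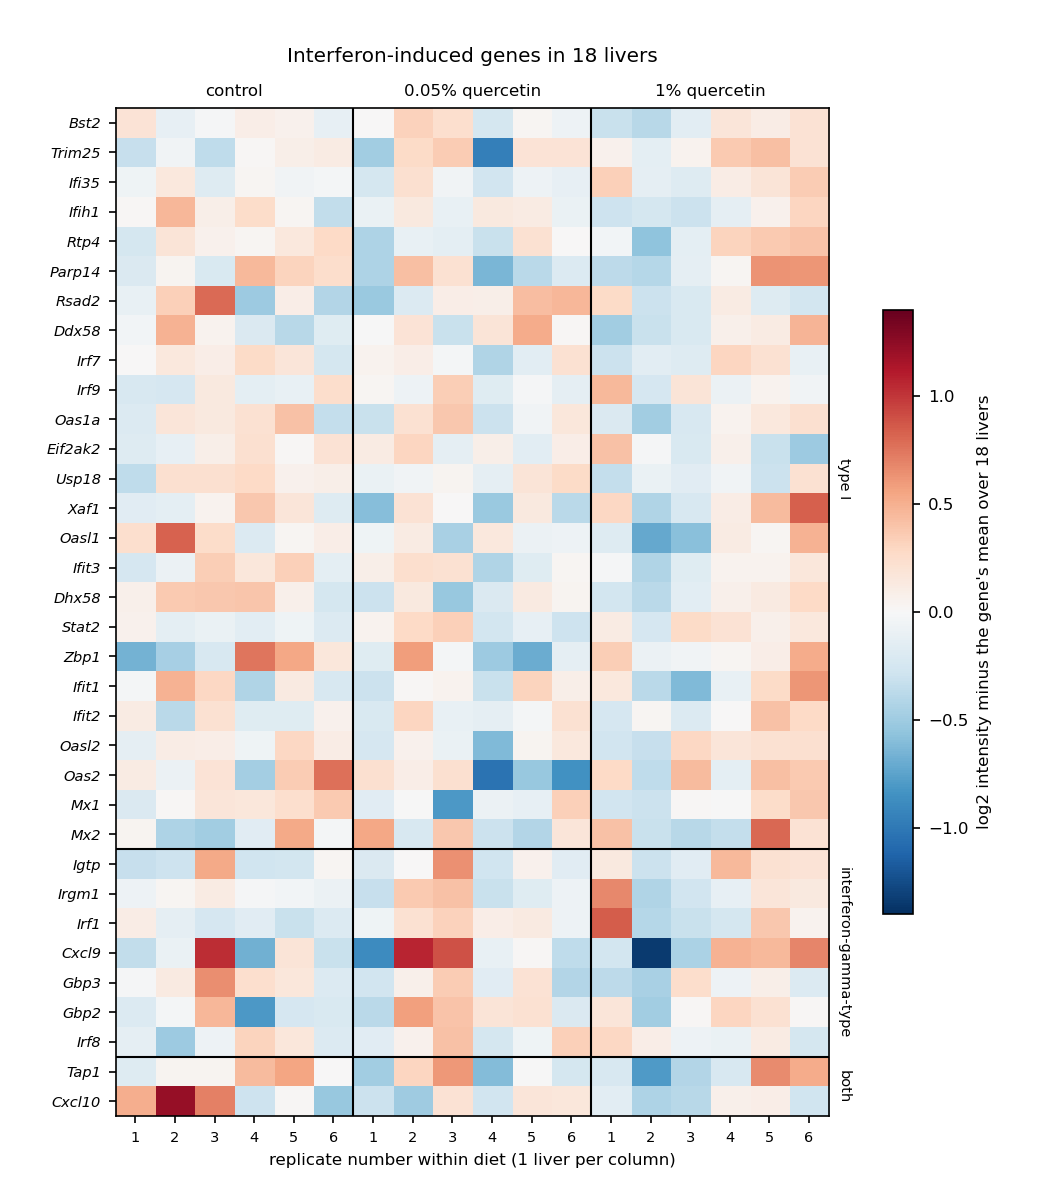
Level of each of the 34 tested genes (rows) in each of the 18 livers (columns, replicate number within diet), as log2 intensity minus the gene's mean over 18 livers, red above and blue below. The column of replicate 2 at 1% quercetin is blue for nearly the whole list, and Cxcl9 and Cxcl10 carry the darkest cells.

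The spread within diets was wider for these genes than for the median gene after scaling between arrays, and was close to that of the median gene on the intensities as deposited. The SD within diets, from the fit with 15 degrees of freedom, had a median of 0.29 over the 34 genes (0.27 for type I and 0.30 for interferon-gamma-type genes), where the median over all 12880 tested genes was 0.23. 26 of 34 lay above that median and 16 of 34 above the upper quartile of all genes, 0.30. Spread falls with signal, and against genes within the same 0.5-unit bin of mean level, 28 of 34 lay above the bin's median and 20 of 34 above its upper quartile, which 25% of genes exceed. All 7 interferon-gamma-type genes lay above their bin's median, as did 19 of 25 type I genes. Cxcl9 had an SD of 0.71, larger than 98.7% of all tested genes, followed by Tap1 (0.45), Oas2 (0.45), Cxcl10 (0.44), Zbp1 (0.44) and Mx2 (0.42). Ifi35 (0.18) was the steadiest member. On the intensities as deposited, without scaling between arrays, the median SD was 0.28 for type I and 0.27 for interferon-gamma-type genes, where it was 0.28 over all genes. The median SD of the members was 0.26 in controls, 0.28 at 0.05% quercetin and 0.27 at 1% quercetin, against 0.21, 0.20 and 0.22 over all genes in the same order of diets.

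**Figure D4:**
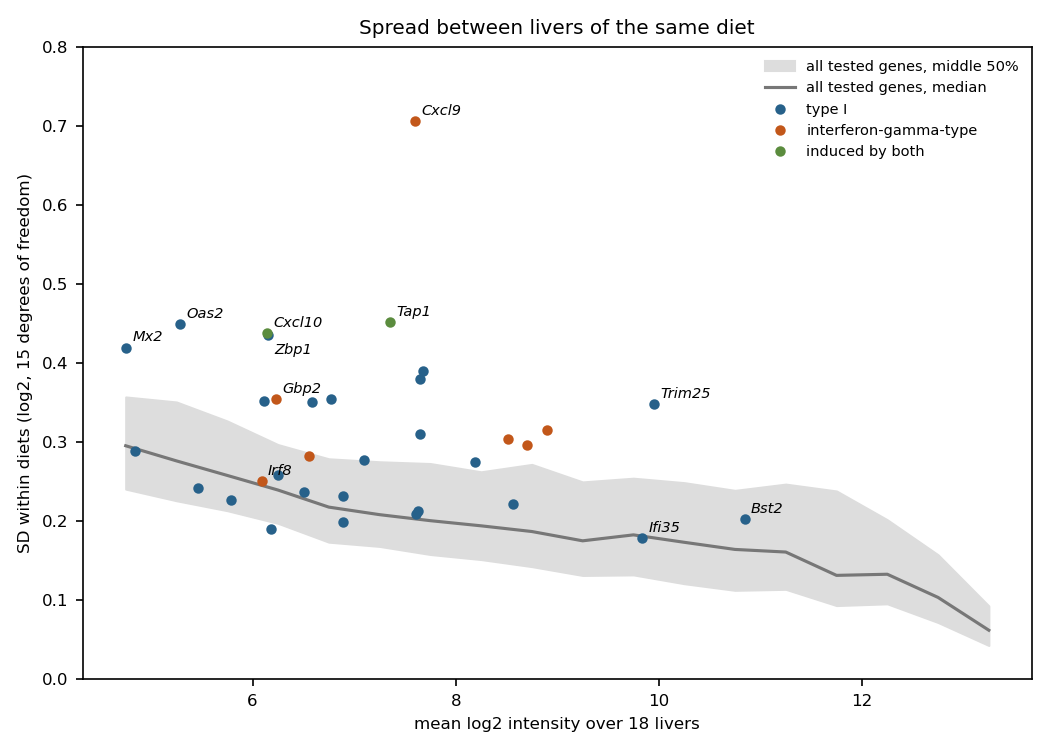
SD between livers of the same diet (y axis, log2) against mean level over 18 livers (x axis, log2) for the 34 genes, with the median (line) and the middle 50% (grey band) of all tested genes in bins of 0.5. On these scaled values most members lie above the line, and Cxcl9 at 0.71 is far above the rest.

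After scaling between arrays, pairs of members had higher correlations from liver to liver than pairs of all genes. With diet means removed, the 300 pairs of type I genes had a median Pearson r of 0.27 over the 18 livers, with 22.3% of pairs above 0.5. The 21 pairs of interferon-gamma-type genes had a median r of 0.42 with 47.6% above 0.5, and the 175 pairs across the groups a median of 0.26. Over all pairs of the 12880 tested genes the median was 0.005, with 5.12% above 0.5. These values are descriptions: the genes share each liver's array, its RNA and its mix of cells. On the intensities as deposited, without scaling between arrays, the median over all gene pairs was 0.29, and the medians were 0.38 for type I pairs, 0.29 for interferon-gamma-type pairs and 0.28 for pairs across the groups. On that scale 31.3% of type I pairs, 47.6% of interferon-gamma-type pairs, 11.4% of pairs across the groups and 24.8% of all member pairs exceeded 0.5, where 25.0% of all gene pairs did. By that share the list as a whole did not stand above all genes there, while the median r was 0.33 over the 561 member pairs against 0.29 over all gene pairs.

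Of the other 33 members, Cxcl9 followed Gbp2 and Igtp most closely. Its Pearson r was 0.86 with Gbp2 (Spearman's rho 0.85, n = 18 livers), 0.77 with Igtp (rho 0.75), 0.63 with Gbp3 (rho 0.60) and 0.61 with Irgm1 (rho 0.68). Between Igtp and Gbp3 in that order came Oas1a (r = 0.70), Tap1 (0.67), Xaf1 (0.66), Bst2 (0.66) and Ifit3 (0.65). With diet means removed, the 2 livers farthest from the median of Cxcl9 were replicate 3 of the control diet and replicate 2 of the 1% diet. Without them r was 0.79 with Gbp2, 0.66 with Igtp, 0.46 with Gbp3 and 0.53 with Irgm1. Within single diets of 6 livers, r with Gbp2 was 0.89 in controls, 0.95 at 0.05% quercetin and 0.81 at 1% quercetin. With Irf1 r was 0.28 over the 18 livers, and it was -0.45 in controls, 0.91 at 0.05% quercetin (0.10 on the intensities as deposited) and 0.31 at 1% quercetin. With Irf8 it was 0.00 over the 18 livers, and -0.15, 0.44 and -0.44 in those diets. The r between Irf1 and Irgm1 was 0.81. The 4 GTPases each held GAAANNGAAA in their printed upstream bases, and Cxcl9 did not. A second, dimmer probe set of Cxcl9 followed the first (r = 0.90), with an SD of 0.51.

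Tap1 sat closest to type I genes. Its r was 0.89 with Parp14, the highest of all 561 pairs, 0.87 with Xaf1 and 0.85 with Oas1a, and 0.67 with Cxcl9. Cxcl10, grouped with Tap1 as induced by both, had an r of 0.05 with Tap1 and 0.30 with Cxcl9, and its closest member was Rsad2 (r = 0.72). Eif2ak2 had a median r of -0.19 with the other type I genes on the probe set used, which both of its further probe sets ran against (r = -0.30 and -0.37). With diet means removed, the mean type I level and the mean interferon-gamma-type level of a liver had an r of 0.66 (rho 0.65), or 0.51 without the 2 farthest livers.

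**Figure D5:**
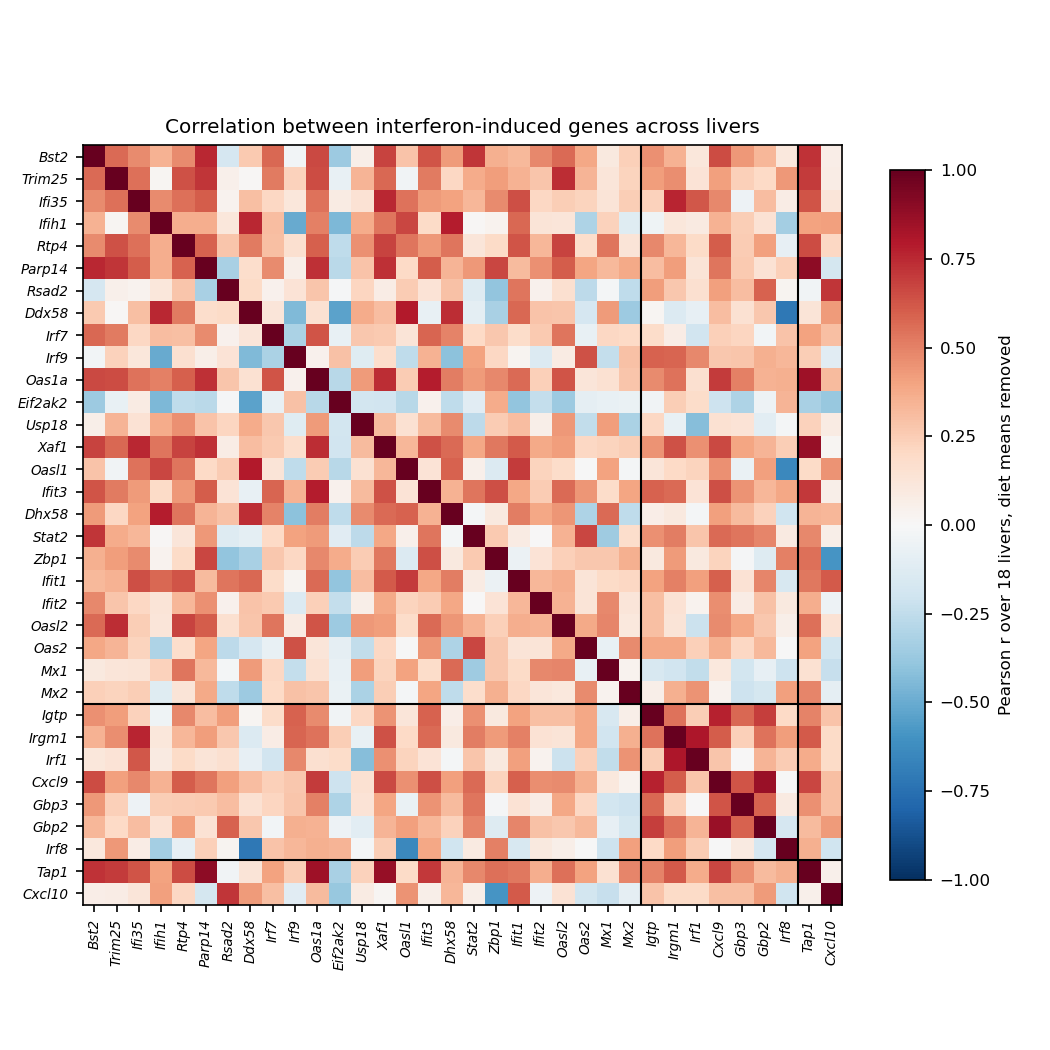
Pearson r between each pair of the 34 genes over 18 livers with diet means removed, red for positive and blue for negative values, type I genes first, then interferon-gamma-type genes, then Tap1 and Cxcl10. The block of Igtp, Cxcl9, Gbp3 and Gbp2 is red, as is the row of Tap1 against Parp14, Xaf1 and Oas1a, and the row of Eif2ak2 is mostly blue.

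Markers of immune cells varied beside these levels. The ranges below keep the diet means, while each r, and the choice of livers left out, is on levels with diet means removed. The level of 8 of 8 Kupffer cell and macrophage markers ranged from -0.37 to 0.46 in controls, -0.33 to 0.32 at 0.05% quercetin and -0.33 to 0.36 at 1% quercetin, and had an r of 0.61 with the type I level and 0.25 with the interferon-gamma-type level. Without the 2 livers farthest from the median of the type I or of the interferon-gamma-type level these were 0.44 and 0.49, so which was higher rests on those livers. The NK list (4 of 6 markers tested) spanned -0.25 to 0.55, -0.36 to 0.45 and -0.42 to 0.34 in those diets, with r of 0.55 and 0.48 (0.64 and 0.44 without the 2). The T cell list (3 of 6 tested) spanned -0.41 to 0.39, -0.34 to 0.30 and -0.27 to 0.25, with r of 0.31 and 0.49 (0.54 and 0.38 without the 2). The defining T and NK markers Cd3e, Cd4, Cd2 and Ncr1 lay below the filter. The tested T cell and NK markers were dim too, with control means from 4.43 (Cd3d) to 5.57 (Cd8a), where the filter value was 4.69. So were those of plasmacytoid dendritic cells (Siglech 4.74 and Spib 5.07). At 1% quercetin against control Cd3d differed by 0.37, Cd3g by -0.07 and Cd8a by -0.25. Cd3d passed the filter only through the quercetin diets, with means of 4.86 at 0.05% and 4.80 at 1%, so its difference cannot be read as a change. The neutrophil list (3 of 6 tested) ran from -0.81 to 1.72 in controls, -1.22 to -0.23 at 0.05% quercetin and -0.27 to 1.23 at 1% quercetin, with r of 0.43 and 0.04 (0.44 and 0.28 without the 2). The B cell list (3 of 5 tested) had r of 0.39 and 0.28 (0.58 and 0.50 without the 2), and plasmacytoid dendritic cells (2 of 3 tested) 0.30 and 0.27 (0.54 and 0.26). Sinusoidal endothelium (5 of 5 tested) had r of 0.10 and 0.02 (0.14 and 0.01 without the 2), and hepatocytes (5 of 6 tested) 0.01 and 0.17 (-0.22 and 0.10). At 0.05% quercetin against control 5 of 5 endothelial markers were higher (median 0.21), and 3 of 3 neutrophil markers (median -1.12) and 2 of 2 plasmacytoid dendritic cell markers (median -0.17) were lower. The other lists split. At 1% quercetin against control Ighm of the B cell list differed by -1.29, and Cd79b and Ms4a1 by 0.05 each. No marker passed the adjusted test. The part of cell mix in the spread of the interferon-induced genes was not tested. As measures of RNA quality, the ratio of 3′ to 5′ Gapdh signal was 0.86 to 1.05 in controls, 0.80 to 0.99 at 0.05% quercetin and 0.84 to 0.97 at 1% quercetin. The same ratio for actin was 2.16 to 2.35 in controls, 1.99 to 2.33 at 0.05% quercetin and 2.13 to 2.54 at 1% quercetin.

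The rest of the pathway was read from a list of 71 genes, of which 60 were tested. At 1% quercetin against control 0 passed the adjusted test, and 5 were higher and 1 lower at an unadjusted p under 0.05, against 4.31% and 4.5% of all genes. At 0.05% quercetin against control the counts were 0 adjusted, and 3 higher and 0 lower unadjusted, against 2.61% and 2.83%. Between 1% and 0.05% quercetin they were 0 adjusted, and 5 higher and 1 lower unadjusted, against 5.04% and 4.03%. The genes behind these counts were Iigp1, Cd274, Tbk1, Il10rb and Pias1 (higher) and Ly6e (lower) at 1% quercetin, Pias1, Gbp6 and Lgals9 (higher) at 0.05% quercetin, and Ifnb1, Tbk1, Myd88, Ptpn2 and Nlrc5 (higher) and Lgals9 (lower) between the doses, some of them named after their values were seen. The transcripts of the ligands were dim: Ifnb1, the beta interferon, averaged 4.73 ± 0.21 in controls, 4.64 ± 0.26 at 0.05% quercetin and 4.94 ± 0.17 at 1% quercetin, and Ifng, interferon-gamma itself, lay below the filter at means of 4.32, 4.32 and 4.64 in the same order (SD, n = 6 each). The receptor subunits Ifnar1 and Ifngr1 had differences of -0.04 and 0.21 at 1% quercetin against control.

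Iigp1, an IRG-family GTPase, was the pathway gene with the smallest p at 1% quercetin. It was 12.46 to 12.71 at 1% quercetin and 12.04 to 12.51 in controls, a difference of 0.32 ± 0.09 (SE, n = 6 per diet, limma adjusted p = 0.367), with groups that overlapped at their edges. Cd274, the checkpoint ligand PD-L1, differed by 0.37 ± 0.14 in that comparison (limma adjusted p = 0.452). It was dim, at means of 4.73 in controls and 5.10 at 1% quercetin, where the filter value was 4.69. Lgals9, which codes for galectin-9, was 10.50 to 10.94 in controls, 10.79 to 11.14 at 0.05% quercetin and 10.27 to 10.75 at 1% quercetin. Its 1% and 0.05% groups did not overlap, as was so for 0.675% of all tested genes. The difference of -0.49 ± 0.11 between the doses had a limma adjusted p of 0.246 (SE, n = 6 per diet), whereas 0.05% quercetin lay 0.29 above control. Pias1, a SUMO ligase that restrains cytokine signalling, was 0.20 ± 0.08 higher at 0.05% quercetin than in controls (limma adjusted p = 0.874), and Myd88, the adaptor of most Toll-like receptors, was 0.46 ± 0.18 higher at 1% than at 0.05% quercetin (limma adjusted p = 0.482). None of these passed the test.

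Other probe sets of the same genes gave a check on these readings. Among the members 20 had 1 single-symbol probe set and 15 had several, with 23 further probe sets, 17 of them above the filter. The second Trim25 probe set (r = 0.99 with the one used), 2 further sets of Ifi35 (r = 0.76 and 0.77) and the brighter further set of Rsad2 (r = 0.95) followed the one used from liver to liver. Both further sets of Eif2ak2 ran against it (r = -0.30 and -0.37), and those of Rtp4 (r = 0.01) and Dhx58 above the filter (r = -0.21) did not follow it, so that liver-to-liver values of these genes depend on the probe set. For Gbp2 the difference at 0.05% quercetin against control was 0.30 on the set used and 0.00 on the other (r = 0.60). For Irf8 the differences at 1% quercetin were 0.09 and -0.09 (r = 0.26). For Ifi35 the difference between the doses was 0.20 on the set used, and -0.07 and 0.15 on the further sets. For Xaf1 it was 0.37 on the set used and 0.12 on a dimmer one (r = 0.57). At 0.05% quercetin against control the Xaf1 differences were -0.21 and 0.05. For Stat2 the differences at 0.05% quercetin against control were 0.09 on the set used and -0.08 on the other (r = 0.37). At 1% quercetin they were 0.19 and 0.11. A dimmer further set of Trim25 had an r of 0.44 with the one used. For Zbp1 the further set gave 0.49 at 1% quercetin against control, where the set used gave 0.13, with an SD of 0.77 between livers.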

How the data were processed

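RNA from each of the 18 livers was labelled with the 3′ IVT Express kit and hybridised to 1 array, per the labels' protocols. The deposited values are linear signal intensities of 45101 probe sets, and for the software and scaling that made them no source used here gives a name. Array medians ran from 14.2 to 22.0, so the intensities were quantile normalized over probe sets other than the 64 controls, 16 was added and log2 was taken. Symbols came from the platform annotation given with the data, with 34945 probe sets carrying 1 symbol, 932 several and 9160 none. A gene was read on its probe set of highest mean and tested where that mean lay above the 40th percentile.

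The 3 diet means were fitted over 18 arrays with limma 3.58.1 in R 4.3.3 (two-sided, 15 residual degrees of freedom, Benjamini-Hochberg over 12880 genes). The scripts were tested on simulated data. Named genes were the 4 type I and 2 interferon-gamma-type members with the smallest p in each comparison, the 6 with the largest SD, a short preset list, and 2 further pathway genes per comparison. A listed pathway gene is not reported here. Members and lists were chosen with earlier results of these data known. Alternatives covered scaling, filter, added value, probe sets, moderation, array weights, the replicate block and leaving out each array. Correlations are descriptions without a test.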

Additional observations from a re-analysis of the deposited data

Results flagged for a closer look

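Usp18 in replicate 1 of the control diet was 6.53, below the other 5 control livers at 6.95 to 7.16. Gbp2 in replicate 2 of the 1% quercetin diet was 5.74, below the other 5 at 6.25 to 6.53. Igtp in replicate 3 of the 0.05% quercetin diet was 9.54, above the other 5 at 8.62 to 8.95. The mean interferon-gamma-type level in replicate 3 of the control diet was 0.36, above the other 5 at -0.20 to -0.05. Each of these livers stood apart from its diet by Dixon's 95% criterion for 6 samples. Of 111 sets of 6 livers examined, 4 (3.60%) held such a liver, and chance alone gives about 1 in 20.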

How the results depend on the processing

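No member passed an adjusted p of 0.05 (limma) in any comparison under any of the 10 other settings or when any 1 of the 18 arrays was left out, and the smallest adjusted p over all of them was 0.355 at 1% quercetin against control, 0.565 at 0.05% quercetin against control and 0.412 between the doses. The count of members at an unadjusted p under 0.05, 0 in each comparison, was small under every alternative. At 1% quercetin against control it was 2 on the intensities as deposited (against 5.55% of all genes) and 1 with no filter (Oas3, against 7.92%), and 0 to 4 with 1 array left out (against 6.85% to 10.7%), the 4 of 34 without replicate 6 of the control diet (against 9.43%). At 0.05% quercetin against control it was 1 on the intensities as deposited, 1 with no filter, 1 with the mean of probe sets, 1 with array weights and 1 on only the 12 arrays compared (against 3.06%, 5.32%, 5.6%, 8.49% and 6.15% of all genes), and 0 to 2 with 1 array left out (against 4.17% to 8.06%), the 2 without replicate 6 of the control diet or replicate 1, 2 or 6 of the 0.05% diet. Between the doses it was 1 after a median shift, 1 with the mean of probe sets and 1 with array weights (against 8.52%, 9.73% and 10.3%), and 0 to 4 with 1 array left out (against 6.49% to 10.3%), the 4 of 34 without replicate 2 of the 1% diet (against 10.1%). The cause of these moves was not tested, apart from the filter. The median SD stayed at 0.24 to 0.33 for type I and 0.27 to 0.32 for interferon-gamma-type genes over the other settings. Of 948 fitted differences per comparison, 41, 40 and 51 changed sign, none of them called and none larger than 0.17 in size. The median of all genes stayed between -0.06 and 0.01 under every setting. The number of arrays, 6 per diet, limits the precision.

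With the replicate number as a block, the unadjusted count was 1 of 34 in each of the 3 comparisons (against 8.32% of all genes at 1% quercetin against control, 5.11% at 0.05% quercetin against control and 8.14% between the doses) and no member passed the adjusted test. The numbers share nothing that the labels state: over 18 same-number pairs of livers the median correlation of deviations from the diet means was -0.01 (-0.46 to 0.31), and 6 of 36 correlated best with their own number.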
